A study of Mus musculus with 6 samples.

Results

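Oxidative phosphorylation is carried out by 5 protein complexes of the inner mitochondrial membrane, whose subunits are encoded partly in the nucleus and partly in the mitochondrial genome. The genes described here were taken from the whole count table by symbol: nuclear rows starting with Nduf, Uqcr, Cox4 to Cox8 or Atp5 and the 4 Sdh subunit genes, without pseudogene symbols ending in -ps, and the mitochondrially encoded mt-Nd, mt-Co, mt-Cytb and mt-Atp rows. This gave 111 of 55401 rows, of which 98 were nuclear and 13 mitochondrial. They carried 110 distinct symbols, since Atp5o stood on a pair of rows, 1 of which held no counts. Of the nuclear rows, 92 passed the filter on low counts and entered the test, as did all 13 mitochondrial rows. Of the 6 that did not, Cox7b2, Cox8b, Ndufa11b and the second Atp5o row were at 0 in every library, and Cox4i2 and Cox8c had few counts.

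The study sequenced RNA of the lacrimal gland, the main source of the watery tear film, from 3 samples of ICR and 3 of NOD/Ltj. ICR mice are an outbred stock and carried the control label; titles of the other group read MOD while its genotype label reads NOD/Ltj, which is used here. NOD/Ltj mice are an inbred strain that develops autoimmune inflammation of tear and salivary glands, and the series title places them in the setting of primary Sjögren's syndrome. The labels give no treatment, age or sex and do not state that each sample came from its own animal, so strain cannot be told apart from such factors here and p-values measure only the spread between these samples.

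Complex I takes electrons from NADH, complex II takes them from succinate, complex III passes them from ubiquinol to cytochrome c, and complex IV hands them to oxygen. Complexes I, III and IV move protons across the membrane as they do so, and complex V, the ATP synthase, lets the protons back and makes ATP. The mitochondrial genome is read as long transcripts from both strands that are cut into single messages, so its genes share their source and are not independent of each other. Secretory glands such as the lacrimal gland spend ATP on protein synthesis, ion transport and exocytosis.

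The libraries held 58426580 to 76554340 estimated counts, taken here at about 4 counts per sequenced fragment. Levels are given in CPM, a count relative to the library's total after TMM scaling of the libraries. The TMM factors were 1.19, 0.809 and 0.914 in ICR 1, 2 and 3 and 0.857, 1.26 and 1.06 in NOD/Ltj 1, 2 and 3. A larger factor lowers a library's CPM. Statements below on whether levels in CPM overlap between groups refer to these scaled levels. A negative log2 fold change means a lower level in NOD/Ltj, its standard error is marked SE, and the test was edgeR's quasi-likelihood test with adjustment over all 18537 genes tested. A gene was called when its adjusted p was under 0.05, which gave 349 genes higher and 67 lower in the NOD/Ltj libraries. Markers of gland epithelium were abundant in every library. The 19 acinar and ductal markers measured summed to 62807, 122524 and 59347 CPM in ICR and to 132565, 85482 and 122088 CPM in NOD/Ltj. Their median log2 fold change was −0.31, with 15 of 19 negative and 1 called lower, and that of the 7 myoepithelial markers was −0.43 with none called; their part in the differences given below was not tested. The 12 lymphocyte markers summed to 13.8, 14.2 and 21.4 CPM in ICR 1, 2 and 3 and to 158, 496 and 348 CPM in NOD/Ltj 1, 2 and 3, and 8 of them were called higher. Markers of other tissues were uneven over libraries. Skeletal muscle markers summed to 205 CPM in ICR 3 and to between 4.26 and 14.8 elsewhere. Salivary gland markers summed to 5199.5 CPM in ICR 3, 1186 in NOD/Ltj 2 and 43.0 to 488 in the rest. Macrophage markers summed to 299, 63.1 and 86.6 CPM in ICR and to 149.7, 241 and 146 CPM in NOD/Ltj. Adipocyte markers summed to 104, 28.6 and 53.7 CPM in ICR and to 24.7, 62.7 and 34.8 CPM in NOD/Ltj.

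The messages of the mitochondrial genome had their lower values in the NOD/Ltj libraries, but no single one passed the test. All 13 log2 fold changes were negative, from −0.61 to −1.01, with a median of −0.86 (a level in NOD/Ltj of 0.55 times that in ICR). The median over all genes tested was −0.03, and 53.0% of all genes were negative. For 12 of the 13 messages (92.3%) every NOD/Ltj library lay below every ICR library, which held for 8.89% of all genes tested. This count is of TMM-scaled levels and was not made with library totals alone. As a share of all counts, the 13 messages together held less in ICR 2 (2.99%) than in NOD/Ltj 2 (3.85%). None was called lower or higher by edgeR, against 0.361% of all genes called lower and 1.88% called higher. At an unadjusted p under 0.05, 7 of the 13 were lower, against 5.05% of all genes. This number fell to 1 with library totals alone or without any one NOD/Ltj library and to 2 with a replicate block, and it was 4 without ICR 1 or ICR 3 and 12 without ICR 2. DESeq2 called 5 lower (mt-Nd1, mt-Nd4, mt-Nd4l, mt-Nd5 and mt-Cytb), against 1.55% of all genes. In a bulk gland, fewer cells rich in mitochondria and less of this RNA per cell cannot be told apart. The lymphocyte markers moved with the strains as given above, and their part in these differences was not tested.

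Some mitochondrial messages are 1 molecule with overlapping reading frames, which limits how far their values can be read apart. The longer overlap is printed to show which bases the counts of both genes can share. In the GENCODE annotation of the GRCm38 build, the start of mt-Atp6 lies inside mt-Atp8 for 43 bases of chromosome M (7927 to 7969, forward strand), and the start of mt-Nd4 inside mt-Nd4l for 7 bases (10167 to 10173). Below, the capitals mark the start codon of the downstream gene.
mt-Atp8 and mt-Atp6 overlap: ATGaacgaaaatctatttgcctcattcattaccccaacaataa

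Complex I receives 7 of its subunits from the mitochondrial genome, all in its membrane arm. mt-Nd1, which lines the quinone channel, stood at 5779, 2624 and 3075 CPM in ICR 1, 2 and 3 and at 1779, 2229 and 1676 CPM in NOD/Ltj 1, 2 and 3. The groups did not overlap, with ICR 1 far above the rest (log2 fold change −1.01 ± 0.40 SE, adjusted p = 0.335). mt-Nd4l, a small membrane subunit, stood at 349.8, 291 and 413 CPM in ICR and at 177, 216 and 148 CPM in NOD/Ltj. It had the smallest p of the 13 (log2 fold change −0.96 ± 0.25 SE, adjusted p = 0.125), and it was the one message not highest in ICR 1. mt-Nd4, which shares its transcript with mt-Nd4l and forms a proton-pumping subunit, stood at 5008, 3327 and 4173 CPM in ICR and at 2383, 2459 and 2127 CPM in NOD/Ltj. The NOD/Ltj libraries lay close together, well below the lowest ICR library (log2 fold change −0.84 ± 0.32 SE, adjusted p = 0.311).

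The other proton-pumping subunits gave the same order of groups. mt-Nd5 stood at 2817, 1747 and 2399 CPM in ICR and at 1385, 1417 and 933 CPM in NOD/Ltj (log2 fold change −0.90, adjusted p = 0.307). mt-Nd2 stood at 3597, 1532 and 2203 CPM in ICR and at 1453, 1213 and 1206 CPM in NOD/Ltj (−0.92, adjusted p = 0.363). Here the gap between ICR 2 and NOD/Ltj 1 was only 79.4 CPM. mt-Nd3, a small subunit beside the quinone site, stood at 351, 159 and 159 CPM in ICR and at 113, 112 and 114 CPM in NOD/Ltj (−0.98, adjusted p = 0.272). The NOD/Ltj values were nearly equal, while the ICR spread came from ICR 1. mt-Nd6 is the one protein gene read from the other strand of the mitochondrial genome, and its annotation overlaps that of mt-Nd5. Its levels were 1825, 718 and 915 CPM in ICR and 729.9, 655 and 518 CPM in NOD/Ltj, and it was the one message whose groups overlapped, ICR 2 lying under NOD/Ltj 1 (−0.86, adjusted p = 0.423). The strand setting of the counting is not given in the sources used here, so reads of mt-Nd5 and mt-Nd6 cannot be told apart where the genes overlap.

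**Figure D1:**
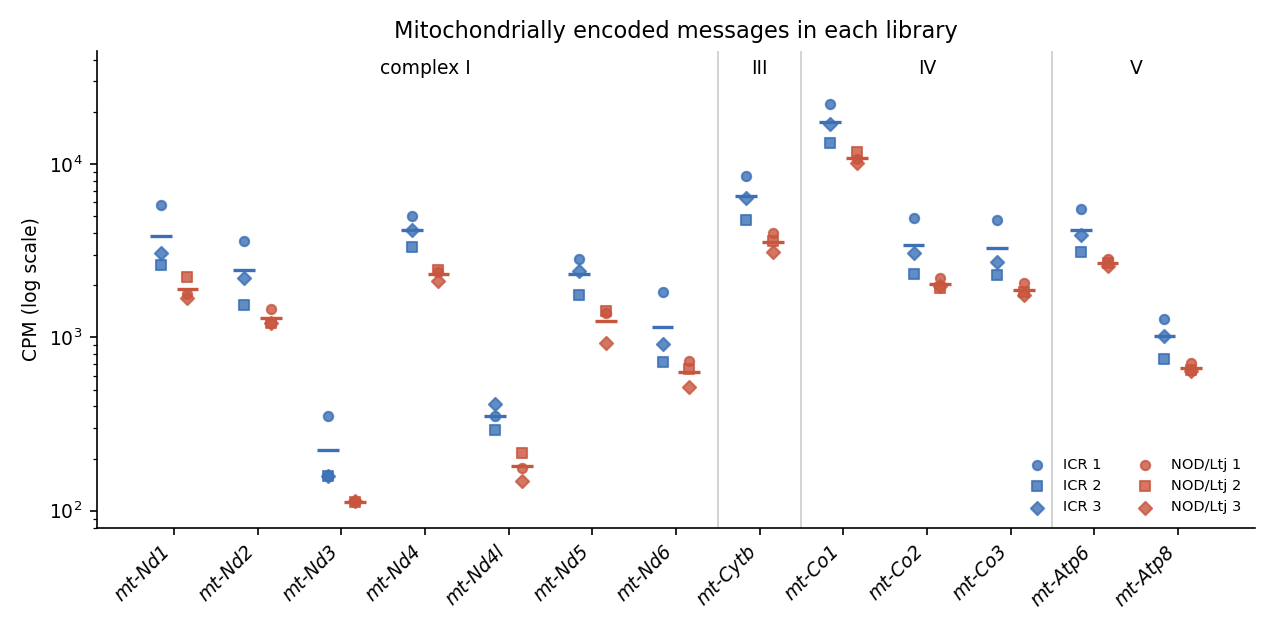
Level in CPM (log axis) of each of the 13 mitochondrially encoded messages in every library, grouped by complex, with ICR in blue and NOD/Ltj in red. Symbols mark the 3 libraries of each strain and bars their mean. In these TMM-scaled levels ICR 1 is highest in 12 of 13 messages, and the NOD/Ltj points lie below all ICR points for every message but mt-Nd6.

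Complexes III, IV and V each draw subunits that carry electrons or protons from the same genome. mt-Cytb, the cytochrome b that carries both quinone sites of complex III, stood at 8493, 4742 and 6402 CPM in ICR and at 3992, 3579.8 and 3096 CPM in NOD/Ltj (log2 fold change −0.88 ± 0.36 SE, adjusted p = 0.362). mt-Co1, the complex IV subunit that binds oxygen, stood at 22066, 13284 and 17109 CPM in ICR and at 10738, 11694 and 10184 CPM in NOD/Ltj (−0.69 ± 0.39 SE, adjusted p = 0.538). The groups did not overlap for either gene, and the ICR range was wider than that of NOD/Ltj. mt-Co2, which takes electrons from cytochrome c, stood at 4881, 2318 and 3065 CPM in ICR and at 2202, 1921 and 1986 CPM in NOD/Ltj (−0.75, adjusted p = 0.455). mt-Co3, a structural core subunit, stood at 4767, 2291 and 2731 CPM in ICR and at 2048, 1822 and 1764 CPM in NOD/Ltj (−0.80, adjusted p = 0.423). In both, ICR 2 lay only slightly above the highest NOD/Ltj library. The ATP synthase messages had the smallest differences of the 13. mt-Atp6, which forms the proton channel beside the c-ring, stood at 5519, 3114 and 3875 CPM in ICR and at 2834, 2678 and 2576 CPM in NOD/Ltj (−0.63, adjusted p = 0.513). mt-Atp8, a short membrane subunit, stood at 1269, 754 and 1019 CPM in ICR and at 708, 651 and 638 CPM in NOD/Ltj (−0.61, adjusted p = 0.427). By complex, the median log2 fold change was −0.92 for I, −0.88 for III, −0.75 for IV and −0.62 for V; whether the complexes differed from each other was not tested.

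Single libraries set much of the size of these differences. Without ICR 1 the median log2 fold change of the 13 messages was −0.51, and without ICR 2 it was −1.07; the other leave-outs lay between. All 13 stayed negative in each of these fits and under every scaling tried, with a median of −0.81 when library totals alone were used. The 2 mitochondrial ribosomal RNAs, encoded on the same genome but largely removed by selection for poly(A), had differences nearer to 0. mt-Rnr2 stood at 459, 204 and 289 CPM in ICR and at 519.8, 189 and 198 CPM in NOD/Ltj (−0.07, adjusted p = 0.975). mt-Rnr1 stood at 434, 162 and 251 CPM in ICR and at 340.2, 138 and 167 CPM in NOD/Ltj (−0.39, adjusted p = 0.813). Both were high in ICR 1 and NOD/Ltj 1, and their groups overlapped.

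The make-up of the mitochondrial message pool did not differ beyond the spread for 12 of the 13 genes. mt-Co1 made up 35.0% ± 1.69 of the counts of the 13 messages in ICR against 37.0% ± 1.63 in NOD/Ltj (SD, n = 3 each, exact permutation test, two-sided, p = 0.3). mt-Cytb followed with 13% ± 0.395 and 12.1% ± 0.866 (SD, n = 3 each, exact permutation p = 0.3). mt-Atp6 was the one message whose share did not overlap between groups: 8.27, 8.44 and 8.15% in ICR and 9.28, 8.74 and 9.55% in NOD/Ltj (exact permutation test, two-sided, p = 0.1, the smallest that 3 against 3 libraries allow). The other 12 shares overlapped, with exact permutation p from 0.2 to 1.0. With 13 shares compared, none passes after adjustment. Per kilobase of message in ICR, mt-Co1 had the highest level (11318 CPM per kilobase), followed by mt-Atp6 (6123), mt-Cytb (5722), mt-Co2 (5002) and mt-Atp8 (4972). mt-Nd3 had the lowest (641), below mt-Nd4l (1183) and mt-Nd5 (1272). This order rests on the counts kept apart from the nuclear copies described below: with copies added, mt-Nd5 (1272) was the lowest, next to mt-Nd3 (1290.3), and mt-Nd4l stood at 2368, while mt-Atp6 (12502) came close to mt-Co1 (12602).

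As a share of all counts, the 13 messages held 7.91, 2.99 and 4.35% in ICR 1, 2 and 3 and 2.62, 3.85 and 2.86% in NOD/Ltj 1, 2 and 3. The means of 5.08% ± 2.54 and 3.11% ± 0.651 (SD, n = 3 each) did not differ beyond the spread (exact permutation test, two-sided, p = 0.2), and ICR 2 lay below NOD/Ltj 2. The 98 nuclear rows held 0.301, 0.203 and 0.204% in ICR and 0.191, 0.262 and 0.218% in NOD/Ltj, with overlapping groups (exact permutation p = 0.8). These shares depend on how much of each library went to secreted tear proteins, which the ratio of mitochondrial to nuclear counts does not. On the log2 scale this ratio was 4.72, 3.88 and 4.41 in ICR and 3.77, 3.87 and 3.71 in NOD/Ltj. The mean difference was −0.548, or 1.46-fold (exact permutation test, two-sided, p = 0.1, the smallest possible). The groups did not overlap, but the lowest ICR library and the highest NOD/Ltj library were only just apart. Without ICR 1 the difference was −0.358 and without ICR 2 it was −0.777.

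**Figure D2:**
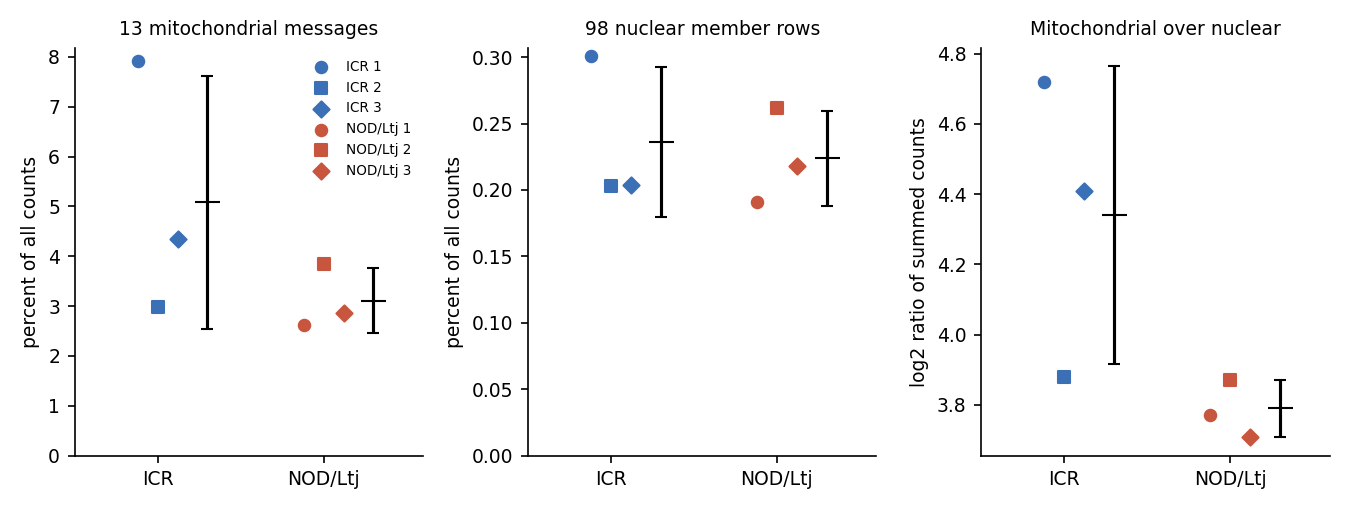
Share of all counts held by the 13 mitochondrial messages (left) and the 98 nuclear rows (middle), in percent, and the log2 ratio of the summed counts (right, axis not starting at 0), with 1 point per library and the mean ± SD of 3 libraries in black. The shares overlap between strains; in the ratio all NOD/Ltj points lie below the ICR points, with ICR 2 at 3.88 and NOD/Ltj 2 at 3.87 almost level.

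The counts of several of these messages are split with nuclear copies of mitochondrial DNA. A search of all annotated mouse transcripts found 11 copies of at least 95% identity over at least 150 bases, and these held 28.4 to 31.9% as many counts as the 13 genes in each library. Gm10925, identical to mt-Atp6 over 678 bases, held between 50.9 and 51.1% of the sum of both in every library. Copies of mt-Co2, mt-Co3, mt-Nd3 and mt-Nd4l likewise held about as many counts as the gene itself. The levels per kilobase of these genes are therefore less certain than those of mt-Cytb and mt-Nd1, for which no such copy was found. None was found for mt-Nd6 either, but its annotation overlaps that of mt-Nd5, and how far this affects its level was not measured. For mt-Nd4 the copy held 23.4 to 25.8% of the sum and for mt-Co1 8.91 to 11.3%. The split was nearly constant over libraries and did not move the comparison: with copies added to their genes, the median of the 13 was again −0.86 and none was called. Messages without a copy, or whose copy held only a trace of counts (mt-Nd2 and mt-Nd5), were also taken alone. From these, the log2 ratio of mitochondrial to nuclear counts differed by −0.659, with the same exact permutation p of 0.1.

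The nuclear genes stood near equality, and 1 of 92 passed the test. That gene, Ndufs5, was lower in NOD/Ltj (1.09% of the members, against 0.361% of all genes), and none was higher (against 1.88%). No nuclear member was higher at an unadjusted p under 0.05 either, against 8.00% of all genes, and neither DESeq2 nor limma-voom called any higher; 6 were lower at that level (6.52%, against 5.05% of all genes). The 6 became 1 with library totals alone, 2 with a replicate block, 2 to 4 without any one NOD/Ltj library and 10 without ICR 3. The median log2 fold change was −0.15, with 82 of 92 negative (89.1%). That lean depends on the scaling: with library totals alone, 53 of 92 were negative and the median was −0.03, while the median of all genes moved from −0.03 to 0.09. Relative to the median of all genes, the nuclear median was −0.12 with TMM and −0.13 with library totals. In the TMM-scaled levels, all NOD/Ltj libraries lay below all ICR libraries for 18 members (19.6%, against 8.89% of all genes), and for none did they lie above (against 11.2% of all genes). These counts were not made with library totals alone. ICR 1 was the highest library for 36 of the 92 members (39.1%, against 26.0% of all genes), and NOD/Ltj 2 the lowest for 34 (37.0%, against 16.1%) and the highest for none. These ranks are of TMM-scaled levels, and NOD/Ltj 2 had the largest TMM factor (1.26). As a share of all counts, the nuclear rows held 0.262% in NOD/Ltj 2, above every library but ICR 1 (0.301%). NOD/Ltj 2 was also the library with the highest sum of lymphocyte markers. The part of the scaling or of lymphocytes in these ranks was not tested.

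**Figure D3:**
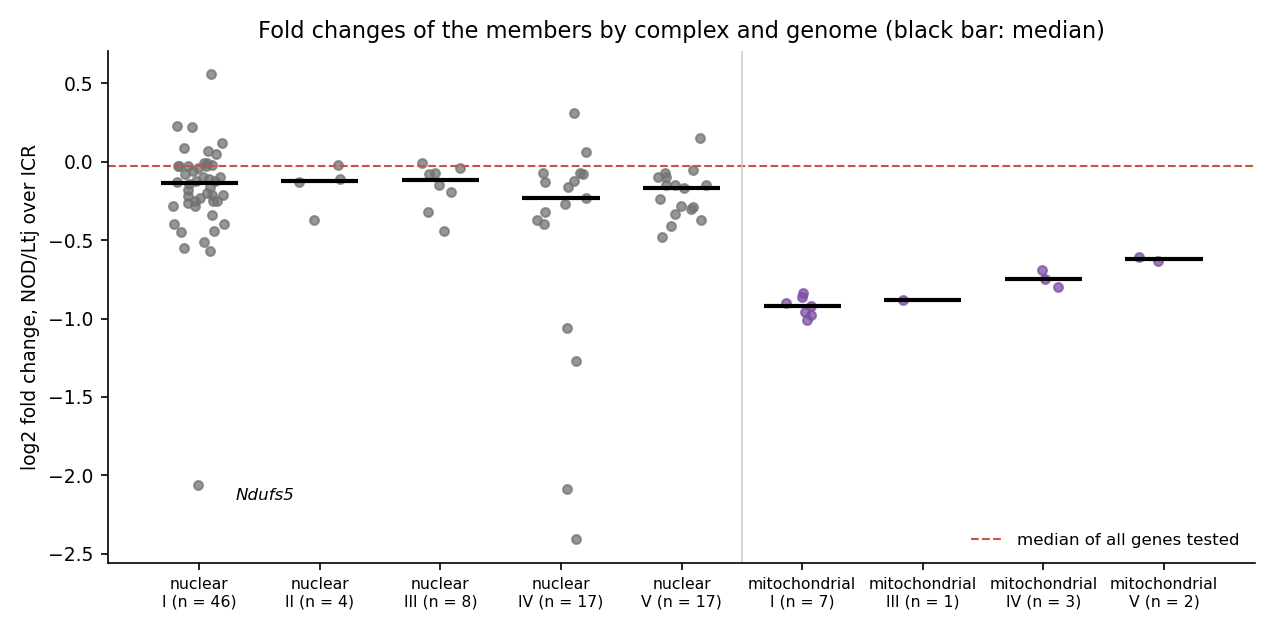
Log2 fold change, NOD/Ltj over ICR, of each member tested, by complex and by genome (nuclear in grey, mitochondrial in purple), with 1 point per gene and the group's median as a black bar. The nuclear medians lie between −0.12 and −0.23, the mitochondrial ones between −0.62 and −0.92, and the dashed line marks the median of all genes tested, −0.03.

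Nuclear complex I genes numbered 47 rows, 46 of them tested. Their summed level was 710.3, 755 and 719 CPM in ICR and 674, 605 and 631 CPM in NOD/Ltj. In these TMM-scaled levels all NOD/Ltj sums lay under the ICR sums. The median log2 fold change was −0.14. The 7 core subunits, which hold the flavin and the iron-sulphur clusters, had a median of −0.11 with none called. Ndufv1, the subunit that binds NADH, stood at 20.8, 18.6 and 19.2 CPM in ICR and at 17.9, 15.3 and 16.1 CPM in NOD/Ltj. Its groups did not overlap, but the difference was small (−0.25 ± 0.15 SE, adjusted p = 0.571). Ndufs1, which carries several of the clusters, stood at 22.4, 24.2 and 22.5 CPM in ICR and at 26.1, 24.5 and 23.0 CPM in NOD/Ltj, one of 2 core genes with a positive value (0.09, adjusted p = 0.873).

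The 29 accessory subunits of complex I, which surround the core, all had negative log2 fold changes, with a median of −0.18. Apart from Ndufs5 these ran from −0.51 to −0.01. With library totals alone as scaling, 20 of the 29 were negative with a median of −0.04; relative to the median of all genes this was −0.13, against −0.15 with TMM. Ndufb9 had the highest level per kilobase of the nuclear complex I genes and stood at 33.1, 39.8 and 31.6 CPM in ICR and at 32.1, 30.0 and 30.5 CPM in NOD/Ltj (−0.18, adjusted p = 0.746). Ndufb7, with a disulphide-linked helical fold, stood at 26.2, 22.5 and 29.0 CPM in ICR and at 21.3, 20.4 and 22.1 CPM in NOD/Ltj (−0.28, adjusted p = 0.54). Ndufb10 was chosen after its values were seen, as the accessory subunit with the largest difference after Ndufs5. It stood at 21.9, 18.4 and 20.6 CPM in ICR and at 14.8, 12.6 and 15.4 CPM in NOD/Ltj, with clear separation but no call (−0.51 ± 0.16 SE, adjusted p = 0.229). The 8 assembly factors, which build the complex and leave it, were evenly divided, 4 positive and 4 negative. Ndufaf1, needed for an early membrane intermediate, had the most negative log2 fold change of them. It stood at 5.95, 5.10 and 5.83 CPM in ICR and at 3.61, 4.22 and 3.54 CPM in NOD/Ltj (−0.57 ± 0.22 SE, adjusted p = 0.335). Ndufs6b, a copy of Ndufs6 annotated as a processed pseudogene, had the largest positive value at a trace level. Its counts were 5, 34 and 18 in ICR against 30, 42 and 20 in NOD/Ltj (0.56 ± 0.77 SE).

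**Figure D4:**
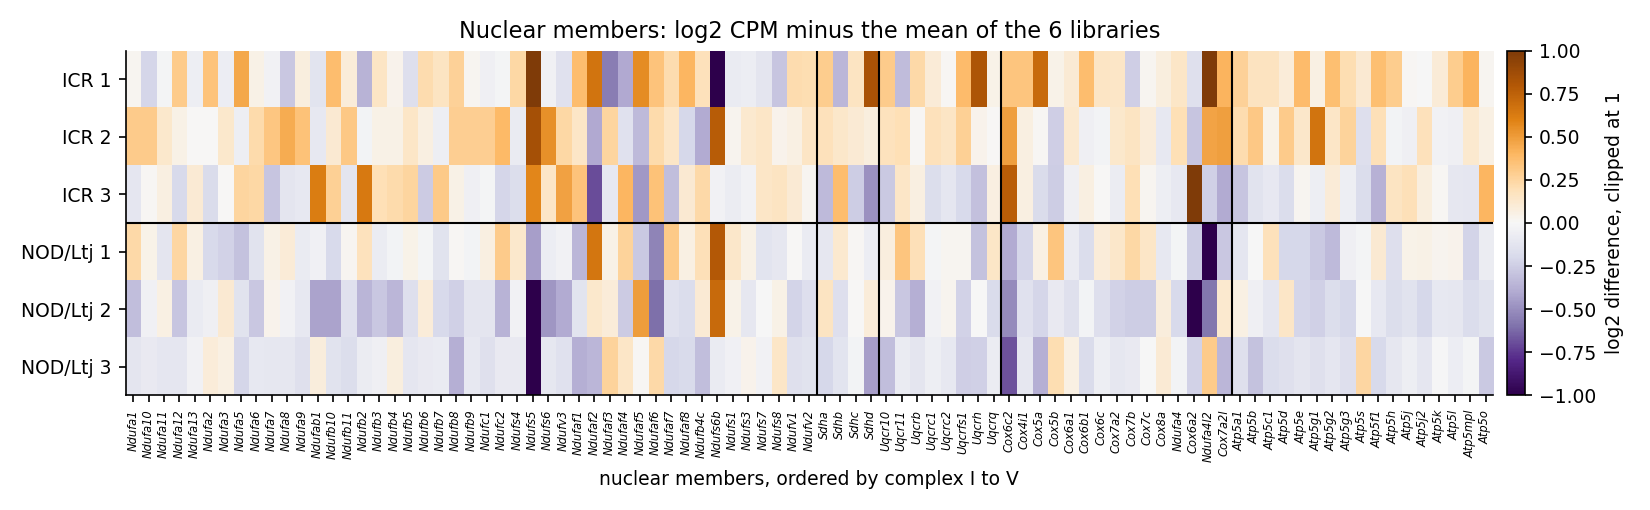
Log2 CPM of each nuclear member minus its mean over the 6 libraries, with libraries as rows and 89 of the tested members with counts in every library as columns, ordered by complex (black lines) and colour limited at a difference of 1. Most columns are pale, Ndufs5 runs from orange in ICR to purple in NOD/Ltj, and Cox6a2 is orange in ICR 3 only.

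Ndufs5, an accessory subunit of the complex I membrane arm imported through the intermembrane space, was the one member called. It stood at 15.8, 9.07 and 7.55 CPM in ICR and at 3.72, 1.84 and 2.23 CPM in NOD/Ltj, with no overlap (−2.06 ± 0.39 SE, adjusted p = 0.0439). A near-identical processed copy, BC002163, had its higher values in NOD/Ltj instead. In the GRCm38 build Ndufs5 lies on the reverse strand of chromosome 4 (123712710 to 123718202) and BC002163 on the forward strand of chromosome 16 (42955631 to 42955949). The copy matched 319 bases of the 321-base coding sequence without a gap, with 99.4% identity and 2 differences, T81C and A105G, given as the gene's base, its position counted from 1 at the first base of the coding sequence, and the copy's base. The stretch from coding position 51 to 111 holds both and is shown because only reads that cover one of these positions, or the gene's sequence outside the copy, can tell gene and copy apart. Capitals mark the positions that differ.
Ndufs5: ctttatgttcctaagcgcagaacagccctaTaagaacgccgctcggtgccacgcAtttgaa
BC002163: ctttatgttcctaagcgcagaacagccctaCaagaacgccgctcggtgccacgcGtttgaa

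In counts, BC002163 held 22, 300 and 353 in ICR against 491, 707 and 663 in NOD/Ltj. Its share of the sum of both rows was 1.97, 34.8 and 45% in ICR and 71.0, 82.7 and 81.9% in NOD/Ltj. On its own it stood above ICR in every NOD/Ltj library but was not called (1.30 ± 0.81 SE, adjusted p = 0.58). The sum of both rows was 16.1, 13.9 and 13.7 CPM in ICR and 12.8, 10.6 and 12.3 CPM in NOD/Ltj. It differed by −0.29 ± 0.17 SE (adjusted p = 0.54), so the call ended once the rows were added together, an alternative chosen after the data were seen. The sequence of the 2 rows in the strains was not tested. The call also ended without ICR 1 (adjusted p = 0.0502), ICR 2 (0.105), ICR 3 (0.075), NOD/Ltj 2 (0.177) or NOD/Ltj 3 (0.209), each by edgeR, and under limma-voom (0.0677) or library totals alone (0.0788). It held without NOD/Ltj 1 (0.0421), and DESeq2 gave 1.84e-05.

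**Figure D5:**
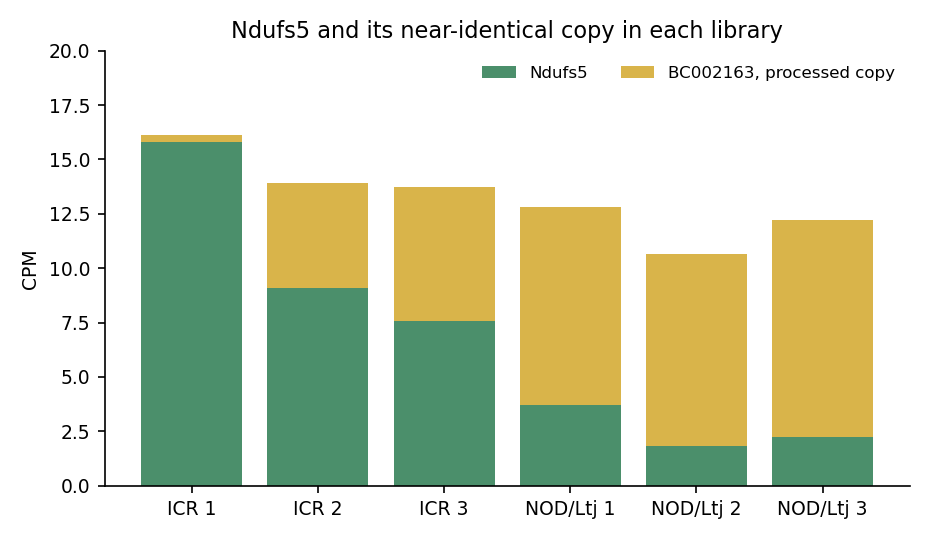
Level in CPM of Ndufs5 (green) and its processed copy BC002163 (yellow) stacked for each library. The stacked sum stays between 10.6 and 16.1 CPM, while the part counted on the copy goes from 1.97% in ICR 1 to 82.7% in NOD/Ltj 2.

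Other nuclear members shared counts with copies without changing a call. Ndufa12, an accessory subunit, held fewer counts than its copy Gm15920, which took 58.7 to 70.2% of the sum, and the difference went from −0.10 alone to −0.33 with the copy added (adjusted p = 0.512). Atp5g1 and its copy Gm10039 are given with complex V below. Over all nuclear members, the 37 copies with counts held 2.59 to 3.48% as many counts as the genes. Ndufb4c, Ndufs6b and Cox6c2 stand on both sides of this figure. They are annotated as processed pseudogenes, but their symbols match the rule, so they were also tested as members. In addition, 33 of the 92 members tested overlap a gene on the opposite strand in the annotation, among them Cox4i1 and Atp5a1, and are uncertain to that extent because the strand setting of the counting is unknown.

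Complex II is encoded by the nucleus alone, and none of its 4 genes was called (median −0.12). Sdha, the flavoprotein that oxidises succinate, stood at 51.5, 47.6 and 33.4 CPM in ICR and at 39.1, 47.0 and 36.4 CPM in NOD/Ltj (−0.11 ± 0.22 SE, adjusted p = 0.896). Sdhb, the iron-sulphur subunit, stood at 25.0, 34.9 and 41.0 CPM in ICR and at 34.6, 28.4 and 29.1 CPM in NOD/Ltj (−0.13, adjusted p = 0.874). Sdhd, a membrane anchor, stood at 28.0, 16.6 and 11.2 CPM in ICR and at 15.0, 16.7 and 11.6 CPM in NOD/Ltj (−0.37, adjusted p = 0.738). All 3 groups overlapped, and the value for Sdhd rested on ICR 1: without it the log2 fold change was 0.03.

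The 8 nuclear genes of complex III were likewise not called and had negative values from −0.44 to −0.01. Uqcrc1, a core protein facing the matrix, stood at 38.1, 40.5 and 31.7 CPM in ICR and at 35.1, 34.8 and 34.2 CPM in NOD/Ltj (−0.08, adjusted p = 0.9). Uqcrfs1, the Rieske iron-sulphur protein that passes electrons on to cytochrome c1, stood at 37.1, 34.6 and 24.9 CPM in ICR and at 28.9, 24.4 and 24.1 CPM in NOD/Ltj (−0.32, adjusted p = 0.583). Uqcrh, the hinge protein, stood at 60.1, 34.9 and 27.5 CPM in ICR and at 27.7, 33.9 and 28.9 CPM in NOD/Ltj (−0.44 ± 0.29 SE, adjusted p = 0.617). The ICR 1 value stood alone for Uqcrh, and the other 5 libraries overlapped. Uqcrb, which had the highest level per kilobase in the complex (82.7 CPM per kilobase in ICR), stood at 48.1, 41.5 and 43.1 CPM in ICR and at 46.8, 31.6 and 37.7 CPM in NOD/Ltj (−0.19, adjusted p = 0.773).

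Complex IV is built from general subunits that most tissues share and from isoforms tied to muscle, lung, testis or low oxygen. The 11 general subunits had a median log2 fold change of −0.12 and no call. Cox4i1, the largest nuclear subunit and the one with the highest level per kilobase (101 in ICR), stood at 87.0, 72.3 and 72.3 CPM in ICR and at 59.4, 62.4 and 64.2 CPM in NOD/Ltj. Its groups did not overlap (−0.32 ± 0.17 SE, adjusted p = 0.507). Cox5a, which together with Cox4i1 starts assembly around mt-Co1, stood at 21.2, 13.1 and 11.4 CPM in ICR and at 13.5, 11.2 and 10 CPM in NOD/Ltj (−0.40, adjusted p = 0.617). Ndufa4, long listed with complex I but now known as a complex IV subunit, stood at 51.8, 53.9 and 43.9 CPM in ICR and at 46.4, 40.8 and 46.2 CPM in NOD/Ltj (−0.16, adjusted p = 0.774). The liver-type isoforms Cox6a1, Cox7a2 and Cox8a had log2 fold changes of −0.12, −0.13 and 0.06, and Cox6b1 and Cox7b had −0.27 and −0.07, all with adjusted p of at least 0.594. Cox7a2l, which joins complex III and IV into supercomplexes, stood at 60.1, 63.5 and 34.4 CPM in ICR and at 37.3, 49.1 and 35.5 CPM in NOD/Ltj (−0.37 ± 0.27 SE, adjusted p = 0.65).

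The tissue isoforms of complex IV were at low levels and uneven over libraries. Cox6a2, the heart and skeletal muscle isoform, held 11, 9 and 68 counts in ICR against 8, 4 and 10 in NOD/Ltj (−2.09 ± 1.03 SE, adjusted p = 0.463). The high library, ICR 3, was also the one in which all 16 skeletal muscle markers had counts and summed to 205 CPM, with Acta1 at 1538 and Ckm at 694 counts. Cox7a1, found in muscle and in brown fat, held 70, 5 and 19 counts in ICR against 12, 4 and 0 in NOD/Ltj (−2.41 ± 1.35 SE, adjusted p = 0.528). Its high library was ICR 1, the one with the highest adipocyte marker sum of 104 CPM; its brown adipocyte markers summed to 6.29 CPM against 2.63 to 5.05 in the others. The part of such tissue in these counts was not tested. Ndufa4l2, a relative of Ndufa4 induced by low oxygen in other settings, held 206, 82 and 46 counts in ICR against 17, 51 and 77 in NOD/Ltj (−1.27 ± 0.65 SE, adjusted p = 0.487), and its groups overlapped. Cox4i2, known from lung, held 0, 10 and 49 counts in ICR against 0, 7 and 7 in NOD/Ltj and was not tested. Cox6b2, a testis isoform, held 9, 20 and 6 counts in ICR against 0, 17 and 17 in NOD/Ltj. Cox8c had 3 counts in NOD/Ltj 2 and 0 in the other libraries, and Cox7b2 and Cox8b had none; a count of 0 allows up to 12 counts in a library, or 0.149 to 0.222 CPM, for counting error alone.

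Complex V had 17 nuclear genes tested, none called, with a median of −0.17 and 16 negative. Their summed level was 956, 945 and 799 CPM in ICR and 812, 787 and 738 CPM in NOD/Ltj, with overlap between ICR 3 and NOD/Ltj 1. Atp5b, the catalytic beta subunit and the nuclear member with the highest level per kilobase (107 in ICR), stood at 210.0, 233 and 170.1 CPM in ICR and at 187, 181 and 152 CPM in NOD/Ltj (−0.24 ± 0.22 SE, adjusted p = 0.745). Atp5a1, the alpha subunit, differed by −0.15 (adjusted p = 0.847). Atp5e, the epsilon subunit of the central stalk, stood at 28.3, 23.9 and 22 CPM in ICR and at 18.8, 18.7 and 20 CPM in NOD/Ltj. Its groups did not overlap (−0.37 ± 0.16 SE, adjusted p = 0.394). Atp5l, a membrane subunit at the dimer interface, stood at 53.8, 42.5 and 40.8 CPM in ICR and at 45.2, 41.0 and 42.0 CPM in NOD/Ltj (−0.10, adjusted p = 0.889).

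The 3 genes of the c-ring, Atp5g1, Atp5g2 and Atp5g3, encode the same mature protein with different import sequences, and their median was −0.41. Atp5g1 stood at 19.4, 29.4 and 17.9 CPM in ICR and at 15.4, 15.8 and 16.7 CPM in NOD/Ltj (−0.48 ± 0.22 SE, adjusted p = 0.42). Its copy Gm10039 held 37.0, 23.8 and 56.2% of the sum of both in ICR and 52.3% in each NOD/Ltj library, and with the copy added the difference was −0.14 (adjusted p = 0.828). Atp5g2 stood at 28.2, 24.2 and 23.5 CPM in ICR and at 17.4, 19.5 and 20.3 CPM in NOD/Ltj. Its groups did not overlap (−0.41, adjusted p = 0.338 by edgeR), and with its copies added the difference was −0.38. Atp5g3 stood at 48.1, 50.0 and 40.1 CPM in ICR and at 40.3, 36.2 and 37.4 CPM in NOD/Ltj, with ICR 3 just under NOD/Ltj 1 (−0.28, adjusted p = 0.558).

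Some promoters of the nuclear members held short sequences that the rule did not use. RefSeq promoter windows on GRCm38.p6, from 250 bases before to 50 after the gene start, were matched by symbol for 72 of the 94 nuclear rows with counts. The letters CGCATGCG are the core of the binding motif of NRF-1, a transcription factor of mitochondrial biogenesis. They were present in a window of 15.3% of these 72 genes and of 2.07% of all 27025 genes with windows. This word reads the same on both strands. AAGATGGC, from the motif of YY1, was in 13.9% against 3.19%, AAGGTCA, from that of the oestrogen-related receptors, in 11.1% against 5.38%, and CCGGAAGT, from that of GABP, in 6.94% against 4.31%, each counted on both strands. None of the 4 words contains another. The 27025 genes were not chosen by expression or base content, and the part of either in these shares was not tested. A match is a string of letters in the window and was not tied to a measured change. The following examples are those with the word CGCATGCG, in capitals, whose genes had the highest levels per kilobase. They lie on the reverse strand at chr9:44920960-44920992, chr5:115349096-115349135, chr16:84835100-84835139 and chr15:102671065-102671104, and the word starts 241, 161, 147 and 41 bases before the gene start.
Atp5l: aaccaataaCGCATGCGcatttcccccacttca
Cox6a1: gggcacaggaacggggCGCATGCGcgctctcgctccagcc
Atp5j: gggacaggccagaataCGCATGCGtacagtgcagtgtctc
Atp5g2: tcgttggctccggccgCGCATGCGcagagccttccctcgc

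Genes that work with the complexes were examined as lists, chosen with earlier results of these data known, and 1 of the genes was called. Over all genes tested, 0.361% were called lower and 1.88% higher. Of 20 genes of the tricarboxylic acid cycle tested, which feeds NADH and succinate to the chain, 1 was lower, none was higher and 19 were not called (median −0.16). The gene was Suclg2, the GTP-forming beta subunit of succinyl-CoA ligase, at 19.5, 21.5 and 17.6 CPM in ICR and 8.53, 10 and 8.49 CPM in NOD/Ltj. Its groups were well apart (−1.11 ± 0.17 SE, 2.16-fold lower in NOD/Ltj, adjusted p = 0.0205). By edgeR, the call ended without any one library other than ICR 1 (adjusted p from 0.0556 to 0.164), with library totals alone as scaling (0.242), and with a replicate block (0.0871). It held by edgeR without ICR 1 (adjusted p = 0.0306) and under limma-voom (0.0421), and DESeq2 gave 7.94e-06. Suclg1 and Sucla2, its partner subunit and the ATP-forming counterpart, had log2 fold changes of 0.23 and −0.36 and were not called.

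None of the 26 biogenesis regulators tested was called by edgeR (median −0.07, with 1 gene above and 2 below at an unadjusted p under 0.05, against 8.00% and 5.05% of all genes). DESeq2 called 1 lower, against 1.55% of all genes, and limma-voom called none. That gene was Ppargc1a, which encodes the coactivator PGC-1α that drives mitochondrial gene programmes. It stood at 1.82, 1.49 and 1.24 CPM in ICR and at 0.463, 0.473 and 0.606 CPM in NOD/Ltj (−1.56 ± 0.38 SE, adjusted p = 0.107 by edgeR and 0.00828 by DESeq2). Mterf1a, a termination factor of mitochondrial transcription, stood at 4.85, 4.42 and 5.31 CPM in ICR and at 2.31, 2.55 and 3.36 CPM in NOD/Ltj (adjusted p = 0.219). Tfb1m, which methylates mitochondrial ribosomal RNA, lay the other way at 4.82, 4.12 and 4.59 CPM in ICR and 8.98, 5.94 and 8.69 CPM in NOD/Ltj (adjusted p = 0.183). Tfam, which packages and transcribes mitochondrial DNA, stood at 10.5, 7.99 and 6.04 CPM in ICR and at 8.18, 9.66 and 8.14 CPM in NOD/Ltj, with overlapping groups.

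The remaining lists gave no call by edgeR. Of 28 electron carriers and inner membrane partners tested, 21 had negative values (median −0.23, 1 lower at an unadjusted p under 0.05). Cycs, which encodes the cytochrome c that links complexes III and IV, stood at 55.9, 47.0 and 49.8 CPM in ICR and at 59.3, 46.9 and 44.3 CPM in NOD/Ltj. The 45 assembly factors outside the naming rule had a median of −0.06, and the 17 genes of mitochondrial dynamics and mitophagy one of −0.09, with none under an unadjusted p of 0.05 in either list. The 26 glycolysis genes had a median of −0.12, with 1 higher and 2 lower at that level, to be read against the same shares of all genes. For glycolysis DESeq2 called 1 gene lower, the lactate carrier Slc16a1 (adjusted p = 0.00366), against 1.55% of all genes. The 9 genes of antioxidant defence and uncoupling had a median of −0.11 and none under an unadjusted p of 0.05. DESeq2 and limma-voom called no gene of the carrier, assembly, dynamics or antioxidant lists.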

How the data were processed

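RNA of 6 lacrimal gland samples, 3 ICR and 3 NOD/Ltj, was selected for poly(A) and sequenced in pairs, per the labels' protocols. The authors deposited estimated counts per gene, already whole and not scaled, so nothing was rounded and the test planned for counts was kept. Among tools, fastp, StringTie and edgeR appear in the submitters' processing notes, without versions or roles. Which aligner, build and strand setting were used is not given in the sources used here. In every library a value of 4 was more frequent (808 to 1043 genes) than 3 (368 to 497) or 5 (223 to 337), and 8 and 12 likewise stood above their neighbours. From this, 1 fragment was assumed to add about 4 counts, and the limit for a count of 0 was set at 3 fragments, or 12 counts. Intervals of this kind cover counting error only.

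Symbols came from GENCODE M21; 260 of 55401 identifiers had none. Where a symbol of a list stood on several identifiers, the one with the most counts was used. The strains were compared with edgeR 4.0.16 under R 4.3.3 (TMM scaling, filterByExpr, quasi-likelihood test, two-sided, no block, Benjamini-Hochberg over 18537 genes). The common biological coefficient of variation was 0.421. Standard errors were derived from the log2 fold change and the F statistic. Ratios and shares were compared by exact permutation over libraries. DESeq2 1.42.0 and limma 3.58.1 (voom), other scalings, no filter, a replicate block and each library left out were alternatives. The fit was tested on simulated counts with a smaller spread than these data and larger changes than the mitochondrial messages had. That test does not show which differences could be called here. Copies were found with blastn 2.17.0 against M21 transcripts at 95% identity or more over at least 150 bases. Every pair of libraries differed far beyond sampling noise over genes (chi-square per degree of freedom from 116 to 1130), so none was a duplicate of another. This comparison cannot show that libraries came from separate animals. Each was counted as 1 sample, as labelled.

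The members and lists were chosen with earlier results of these data known. Genes named with values were the 13 mitochondrial genes, every called member, per complex the 3 largest differences and the 2 highest levels per kilobase, catalytic subunits, isoform genes and called genes of the pathway lists; this gave 53 genes, 49 of them tested. Others are named as list examples. One gene that the rule names is not reported here.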

Additional observations from a re-analysis of the deposited data

How the results depend on the processing

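The count of 1 nuclear member called lower became 0 under library totals only, limma-voom and merged copies (the last chosen after seeing the data), and ranged from 0 to 1 with 1 library left out. The count of 0 mitochondrial members called lower became 5 under DESeq2 and stayed at 0 in each leave-one-out fit. The difference in the nuclear share of counts, −0.0121 percentage points, lay between −0.0313 and 0.0204 over the leave-one-out values and changed sign without ICR 1 (0.0204) or NOD/Ltj 1 (0.00413). That of the mitochondrial share ranged from −3.02 to −0.557, and that of the log2 ratio from −0.777 to −0.358. Of 686 single gene values under alternatives, over 49 genes, 653 kept their direction and side of the threshold, 15 lost the call (Ndufs5 and Suclg2), 5 gained one under DESeq2, and 13 changed sign, over 8 genes that were not called. With library totals only, the log2 fold change turned positive for Sdha (0.01), Sdhb (0.01), Uqcrc1 (0.04), Cox6a1 (0.0), Cox6b2 (0.07) and Cox7b (0.05). The leave-one-out fits changed its sign for Sdhd (−0.63 to 0.03), Sdhb (−0.32 to 0.04), Atp5l (−0.17 to 0.02), Cox6b2 (−0.76 to 0.42) and Cox7b (−0.22 to 0.02). Nothing in the labels ties equal replicate numbers to a shared animal or batch, and deviations of same-numbered libraries correlated at −0.12, −0.149 and 0.0723. With a replicate block, 1 nuclear member (Ndufs5, adjusted p = 0.043) and 0 mitochondrial members were called lower, and the calls over all genes went from 349 higher and 67 lower to 129 and 25. They were 226 and 40 with library totals only, 898 and 285 with DESeq2 and 123 and 20 with limma-voom. Without single libraries they ranged from 11 to 406 higher and from 2 to 118 lower. The wide spread of the ICR libraries and 3 libraries a group limit what could be called: the differences of the mitochondrial messages had standard errors of 0.25 to 0.40.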
